A study of Homo sapiens with 7 samples.

Results

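Integrin genes were followed through a stepwise acquisition of dasatinib resistance. The genes were ITGA2, ITGA4, ITGA5, ITGA6, ITGAV and ITGAL, which encode alpha subunits, and ITGB1, ITGB2, ITGB5 and ITGB7, which encode beta subunits. They were chosen by name as adhesion receptors other than the platelet integrin, and all 10 were found among the 25702 genes counted. RNA was sequenced from 7 lines of K562, a BCR::ABL1-positive cell line established from chronic myeloid leukemia and labelled as an erythroblast. The controls were a drug naive line and a line kept in the vehicle DMSO, and neither received dasatinib, a tyrosine kinase inhibitor that blocks BCR::ABL1 and SRC family kinases. The DasR lines were K562 cells grown in 10, 15, 25, 50 or 200 nM dasatinib. They are successive points of 1 dose escalation of 1 cell line, cultured without stromal cells as far as the methods describe. Lines at 10, 15 and 25 nM are called early stage and those at 50 and 200 nM late stage, stages that the study set by clustering the same libraries. Within a stage, values are given in order of rising dose.

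Each line was sequenced once. Counts summed to 21007761 in the drug naive line, 24037893 in the DMSO line, then 27808639, 27844799 and 20059656 in the early stage lines and 20827519 and 21588772 at late stage. The lines of a stage, and the 2 controls, stood in for replicates, so that dose adds to the spread inside a group, and p-values measure only the spread between these lines. In bulk RNA, fewer cells that express a gene and less RNA per cell cannot be told apart. The labelled cell type was checked against its markers. All 13 erythroid marker genes reached 10 CPM (counts scaled to the library total) in at least 1 line, although SLC4A1 had 5.09 and 4.95 CPM in the controls and 2.87 at 200 nM. HBG2, a fetal globin, had the highest sum over the lines, while at 15 nM the embryonic globin HBZ was higher (2860 against 2280 CPM) and at 25 nM both had 1920 CPM.

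Integrins are heterodimers of 1 alpha and 1 beta subunit that bind matrix or counter-receptors outside the cell and talin, kindlin and the actin cytoskeleton inside it. Each alpha subunit pairs with few beta subunits, and the pair sets the ligand. ITGA5 with ITGB1 forms the classical fibronectin receptor, ITGAV with ITGB5 binds vitronectin, and ITGA2 and ITGA6 with ITGB1 bind collagen and laminin. ITGA4 pairs with ITGB1 to bind VCAM1 and fibronectin and with ITGB7 to bind MADCAM1, and ITGAL with ITGB2 forms the leukocyte receptor for ICAM1. In chronic myeloid leukemia, progenitor cells are known to adhere poorly to marrow stroma although they carry beta 1 integrins.

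The promoters of ITGA5, ITGB1 and ITGB5 are shown. Each is given as the 250 bases before a RefSeq transcription start on GRCh38.p14, written 5′ to 3′ on the strand of the gene. Capitals mark the GC box, GGGCGG or its reverse complement CCGCCC, which is the core of Sp1 family sites. ITGA5 lies on chr12:54419267-54419516, minus strand, ITGB1 on chr10:32958231-32958480, minus strand, the more upstream of its 2 listed starts, and ITGB5 on chr3:124887366-124887615, minus strand, the most downstream of its 3 listed starts.
ITGA5: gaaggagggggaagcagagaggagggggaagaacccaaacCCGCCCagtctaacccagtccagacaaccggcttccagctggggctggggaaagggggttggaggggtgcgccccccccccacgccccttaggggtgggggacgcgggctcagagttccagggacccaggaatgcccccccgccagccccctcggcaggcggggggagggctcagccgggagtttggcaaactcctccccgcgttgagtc
ITGB1: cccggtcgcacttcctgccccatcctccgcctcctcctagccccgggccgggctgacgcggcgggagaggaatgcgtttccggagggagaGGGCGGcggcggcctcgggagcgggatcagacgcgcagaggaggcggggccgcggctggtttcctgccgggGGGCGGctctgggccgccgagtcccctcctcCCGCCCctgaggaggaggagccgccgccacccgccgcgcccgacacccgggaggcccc
ITGB5: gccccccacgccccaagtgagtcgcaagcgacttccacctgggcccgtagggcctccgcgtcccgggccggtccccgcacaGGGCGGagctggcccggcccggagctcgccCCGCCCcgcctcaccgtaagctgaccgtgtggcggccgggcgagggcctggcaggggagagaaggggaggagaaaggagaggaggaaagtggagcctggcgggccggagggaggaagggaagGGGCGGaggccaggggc
The ITGA5 promoter held 1 GC box and was 70% G or C, the ITGB1 promoter held 3 and was 78.4% G or C, and the ITGB5 promoter held 3 and was 75.2% G or C. For ITGB1 and ITGB5 these are the windows with the most GC boxes. The other ITGB1 start had 0 and was 41.6% G or C, and the other ITGB5 starts had 2 and 0. A GC box was found in 42.6% of 35116 RefSeq promoters of the same length. Neither the AP-1 letters TGANTCA, found in 6.57% of promoters, nor the GATA letters GATAA, found in 20.4%, occurred on either strand of these windows. A match of letters is a description and not a site. The table of RefSeq promoters used here was matched for 8 of the 10 genes, and not for ITGAL and ITGB2.

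ITGA5 and ITGB1, the subunits of the fibronectin receptor, fell in the early stage lines. At late stage ITGA5 overlapped the controls while ITGB1 lay below them. ITGB5 was highest in the late stage lines, and ITGAV hardly varied. These were the 4 integrin genes that reached 10 CPM in at least 2 libraries and entered the test, which was edgeR's quasi-likelihood test over 10452 genes with Benjamini-Hochberg adjustment at a false discovery rate (FDR) of 0.005. The other 6 genes had lower counts and are given by their counts.

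**Figure D1:**
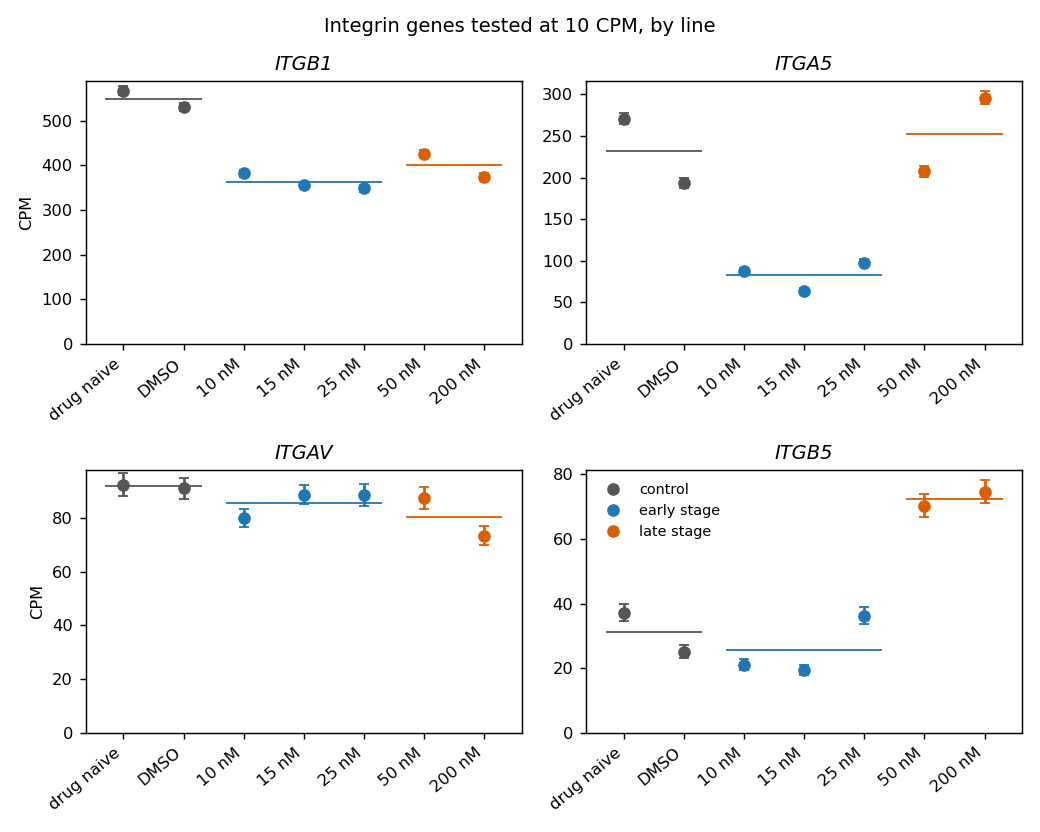
CPM of ITGB1, ITGA5, ITGAV and ITGB5 in each of the 7 K562 lines, from drug naive to 200 nM DasR, 1 point per line and coloured by stage, with error bars for the exact 95% Poisson interval of the count and a line at each group mean. ITGA5 lies between 63.9 and 97.6 CPM in the early stage lines and between 193 and 296 CPM in the others, whereas ITGAV stays between 73.4 and 92.4 CPM.

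ITGB1, the beta subunit shared by most alpha subunits of the list, had the most counts of the 10 genes in every line. It is encoded on chr10:33176201-33294720 of GRCh37, minus strand. It had 567 CPM in the drug naive line, 531 in the DMSO line, then 382, 356 and 349 in the early stage lines and 426 and 374 at late stage. Every DasR line was below both controls, and the early and late stage lines overlapped. The group means were 549 ± 25.5 CPM (SD, n = 2) in the controls, 362 ± 17.3 (n = 3) in the early stage and 400 ± 36.7 (n = 2) in the late stage. The early stage lines were 1.53-fold lower than the controls (log2 fold change -0.62, SE 0.10, edgeR FDR 0.00294). Late stage against control gave -0.48 (SE 0.11, edgeR FDR 0.016), which missed 0.005, and the FDR was 0.0868 without the drug naive line and 0.0652 without the 200 nM line. Between late and early stage it was 0.14 (SE 0.10, edgeR FDR 0.373).

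ITGA5, the alpha subunit that confers fibronectin binding, gave the largest early stage difference of the 4 tested genes. The gene lies on chr12:54789045-54813050 of GRCh37, minus strand. It had 271 CPM in the drug naive line, 193 in the DMSO line, then 87.7, 63.9 and 97.6 in the early stage lines and 208 and 296 at late stage. The early stage lines were all below the controls and the late stage lines, and the late stage and control lines overlapped, with the 200 nM line the highest of all 7. Group means were 232 ± 55.5 CPM (SD, n = 2) in the controls, 83 ± 17.3 (n = 3) in the early stage and 252 ± 62.8 (n = 2) in the late stage. The early stage lines were 2.84-fold lower than the controls (log2 fold change -1.5, SE 0.24, edgeR FDR 0.00287). The late stage lines differed from the controls by 0.09 (SE 0.27, edgeR FDR 0.814), a difference within the spread between lines. They were 3.02-fold above the early stage lines (log2 fold change 1.59, SE 0.24, edgeR FDR 0.0167), which passed 0.05 and not 0.005, and without the 200 nM line the FDR was 0.0873.

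Both early stage calls rested on all 5 lines compared. When any 1 control or early stage line was left out, the FDR of ITGA5 and of ITGB1 rose above 0.005, to at most 0.026 and 0.0264 in edgeR, while the log2 fold changes stayed between -1.75 and -1.20 for ITGA5 and between -0.69 and -0.54 for ITGB1. The summed CPM of the erythroid markers was 4070 in the drug naive line, 3480 in the DMSO line, 10200, 11500 and 8670 in the early stage lines, 5990 at 50 nM and 4640 at 200 nM, so that it was highest in the lines where ITGA5 was lowest. The sum was not followed by every marker. GATA1 was highest at late stage, with 235 and 295 CPM, against 201 and 217 in the controls and 165 to 206 at early stage. HBE1 was below both controls at 10 nM (473 against 651 and 600 CPM) and above them at 15 and 25 nM (1650 and 720). The part of the erythroid sum in the ITGA5 and ITGB1 differences was not tested.

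Across all genes, 18.0% of the 10452 tested were called in early stage against control, and 10.1% of the 10452 were called lower. Of the 4 integrin genes 2 were called, both lower. In late stage against control 7.98% were called and 0 of the 4, and when all 5 DasR lines were set against the controls 8.08% were called and 0 of the 4. Over the 5 DasR lines, the log2 fold change of ITGB1 was -0.56 (SE 0.10, edgeR FDR 0.00651) and that of ITGA5 was -0.65 (SE 0.57, edgeR FDR 0.418). In late against early stage 0% of genes were called, with 3450 genes at an unadjusted p under 0.05, a smallest FDR of 0.0167 by edgeR, 1135 genes called by DESeq2 and 0 by limma-voom. The early and late stage comparisons share the same 2 control lines. At an FDR of 0.05 the shares were 46.5% in early stage (24.0% lower) with 2 integrin genes lower, 33.9% in late stage with ITGB5 higher and ITGB1 lower, and 12.7% in late against early stage with ITGA5 and ITGB5 higher, a direction shared by 6.60% of all genes. The median log2 fold change of the 4 genes was -0.46 in early stage and -0.06 in late stage, where the median of all genes was 0.

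**Figure D2:**
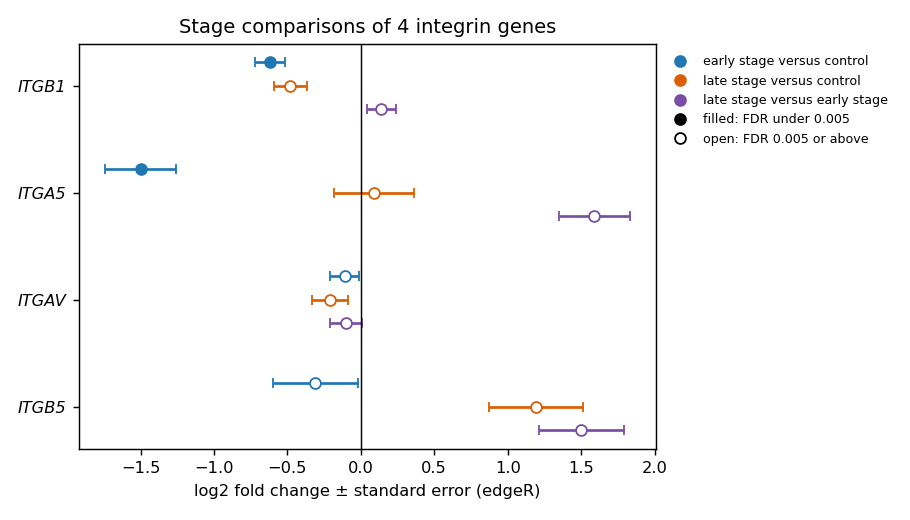
Log2 fold changes on the horizontal axis with their standard errors as bars, filled where the FDR is under 0.005, for the 4 tested integrin genes in early stage against control, late stage against control and late against early stage. ITGA5 is at -1.5, 0.09 and 1.59, and ITGB5 at -0.31, 1.19 and 1.5, while ITGAV lies near 0 in each.

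ITGAV, the alpha subunit of vitronectin receptors, had 92.4 CPM in the drug naive line, 91 in the DMSO line, then 80, 88.7 and 88.5 in the early stage lines and 87.4 and 73.4 at late stage. Every DasR line was below both controls, by little, and the stages overlapped. The gene lies on chr2:187454737-187545628 of GRCh37, plus strand. Means were 91.7 ± 0.97 CPM (SD, n = 2) in the controls, 85.7 ± 4.98 (n = 3) in the early stage and 80.4 ± 9.88 (n = 2) in the late stage. The log2 fold change was -0.11 (SE 0.10, edgeR FDR 0.402) in early stage and -0.21 (SE 0.12, edgeR FDR 0.193) in late stage, and neither passed the test.

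ITGB5, the beta subunit that pairs with ITGAV only, had 37.1 CPM in the drug naive line, 25.1 in the DMSO line, then 21.1, 19.4 and 36.1 in the early stage lines and 70.3 and 74.6 at late stage. The late stage lines stood above all the others, and the early stage and control lines overlapped. The gene lies on chr3:124480795-124620265 of GRCh37, minus strand. Means were 31.1 ± 8.49 CPM (SD, n = 2) in the controls, 25.5 ± 9.21 (n = 3) in the early stage and 72.5 ± 3.06 (n = 2) in the late stage. The log2 fold change was -0.31 (SE 0.29, edgeR FDR 0.412) in early stage. In late stage it was 1.19, or 2.29-fold higher (SE 0.32, edgeR FDR 0.027), and late against early it was 1.5 (SE 0.29, edgeR FDR 0.023), both past 0.05 and not 0.005. The late stage difference did not pass 0.05 when 1 line compared was left out, with an edgeR FDR of 0.0515 without the drug naive line, 0.131 without the DMSO line, 0.0618 without the 50 nM line and 0.079 without the 200 nM line. Late against early stage did not pass it without the 15 nM line (edgeR FDR 0.0552) or the 200 nM line (0.114). For comparison, the 2 groups did not overlap for 69.8% of all genes tested in early stage, 67.7% in late stage and 53.3% in late against early stage, so that non-overlap of so few lines is common.

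ITGB7 was the only other integrin gene with an early stage difference past the test once the limit on low counts was lowered to 1 CPM in 2 libraries. This limit admitted 14899 genes, 8 of the 10 integrin genes among them, and called 14.3% of genes in early stage and 5.52% in late stage. ITGB7, the beta subunit of gut-homing receptors on lymphocytes, had 139 counts in the drug naive line, 182 in the DMSO line, then 66, 55 and 34 in the early stage lines and 68 and 137 at late stage. Its mean was 7.09 ± 0.675 CPM (SD, n = 2) in the controls, 2.01 ± 0.341 (n = 3) in the early stage and 4.81 ± 2.18 (n = 2) in the late stage, and the 3 groups did not overlap. The log2 fold change in early stage was -1.82 (SE 0.31, edgeR FDR 0.00406), and it lost the call when any 1 control or early stage line was left out, with an FDR of at most 0.027. With 3 of 8 genes called at this limit, all lower in early stage, 0 were called in late stage.

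ITGB7, on chr12:53585107-53601066 of GRCh37, minus strand, shares 1881 exon bases with ZNF740 on the opposite strand, and whether the counting used strand is not given in the sources used here. ZNF740 had 55.2 CPM in the drug naive line, 61.3 in the DMSO line, then 56.6, 45.5 and 42.8 in the early stage lines and 54.1 and 55.2 at late stage. Both genes had their highest CPM in the DMSO line and their lowest at 25 nM. At 10 nM, however, ZNF740 was above the drug naive line, while ITGB7 had 2.37 CPM against 6.62 in the drug naive line. The part of ZNF740 reads in the ITGB7 difference was not tested.

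The leukocyte genes ITGB2 (chr21:46305868-46351904, minus strand) and ITGAL (chr16:30483979-30534888, plus strand) had low counts. ITGB2, the common beta subunit of leukocyte integrins, had 101 counts in the drug naive line, 77 in the DMSO line, then 318, 10 and 15 in the early stage lines and 57 and 21 at late stage. The 10 nM line alone was high, at 11.4 CPM against 0.359 and 0.748 in the other early stage lines. Its early stage log2 fold change at the 1 CPM limit was 0.07 with a SE of 1.23 (edgeR FDR 0.97), and its late stage one was -1.10 (edgeR FDR 0.586). The antisense gene ITGB2-AS1, which shares 303 exon bases, was also highest at 10 nM, with 46 counts against 2 to 16 in the other lines. ITGAL had 24 and 20 counts in the controls, 9, 10 and 6 in the early stage lines and 14 and 8 at late stage. It was below 1 CPM in the DMSO line and in every DasR line, and did not enter the test at the 1 CPM limit.

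ITGA4, a receptor subunit of blood progenitors and lymphocytes, was the most uneven of the alpha subunits. Its counts were 31 in the drug naive line, 131 in the DMSO line, then 64, 1 and 6 in the early stage lines and 28 and 67 at late stage. The controls themselves differed, at 1.48 and 5.45 CPM, and the early stage log2 fold change of -1.94 (SE 1.12, edgeR FDR 0.203) did not pass the test. The neighbor CERKL, which shares 2813 exon bases with ITGA4, had at most 6 counts in any library. ITGA6 had between 17 counts in the DMSO line and 77 at 15 nM, with an early stage log2 fold change of 0.46 (SE 0.53, edgeR FDR 0.525). ITGA2, a collagen receptor subunit, had 5 and 7 counts in the controls, 13, 23 and 12 in the early stage lines, and 7 and 6 at late stage. The early stage lines stood above the other lines for ITGA2, but no line reached 1 CPM and ITGA2 was not tested. Counts of 3 correspond to 0.108 to 0.15 CPM in these libraries, so the ITGA4 level at 15 nM was below that floor. These floors cover counting error only. On GRCh37, ITGA4 lies on chr2:182321929-182403667, ITGA6 on chr2:173292082-173371187 and ITGA2 on chr5:52285170-52390609, all on the plus strand.

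**Figure D3:**
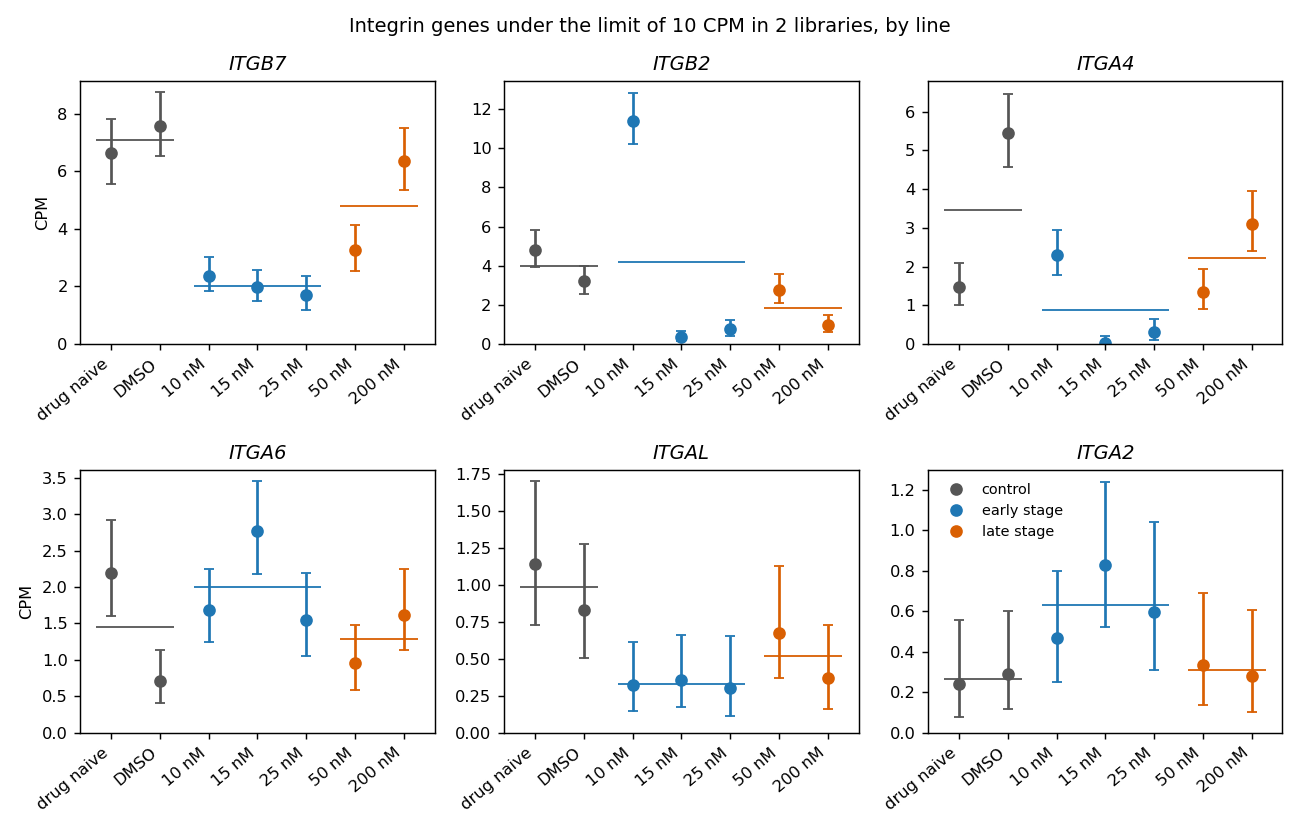
CPM of the 6 integrin genes with low counts in each of the 7 lines, coloured by stage, with error bars for the exact 95% Poisson interval of the count and a line at each group mean. ITGB2 peaks at 11.4 CPM at 10 nM only, ITGA4 is lowest at 15 nM with 1 count, and ITGB7 is lower in all 3 early stage lines than in any other line.

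Because an alpha subunit reaches the cell surface only with a beta partner, RNA levels were compared per kilobase of transcript, on TMM-scaled CPM per kilobase. ITGB1 was at 143 in the drug naive line, 128 in the DMSO line, 93.8, 86.4 and 85.3 in the early stage lines and 104 and 90.3 at late stage. ITGA5 was at 65.7, 44.9, 20.7, 14.9, 22.9, 48.9 and 68.8 in the same order. ITGAV was between 10.1 and 13.2 and ITGB5 between 5.71 and 21.8 across the lines. The ratio of ITGB1 to the sum of its alpha partners in the list (ITGA2, ITGA4, ITGA5, ITGA6 and ITGAV) was 1.79 and 2.20 in the controls, 2.88, 3.12 and 2.40 in the early stage lines, and 1.70 and 1.13 at late stage. It was thus above the controls in every early stage line and below them in every late stage line.

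ITGA5 made up 82.6% and 77% of the summed alpha subunit level in the controls, 63.6%, 53.8% and 64.4% in the early stage lines and 79.6% and 86.4% at late stage. ITGAV made up nearly all of the rest, from 12.6% at 200 nM to 44.1% at 15 nM. ITGA2, ITGA4 and ITGA6 together held between 0.662% and 2.13%. ITGB5 relative to ITGAV was 0.859 and 0.590 in the controls, 0.564, 0.468 and 0.873 in the early stage lines, and 1.72 and 2.17 at late stage. These are ratios of RNA and say nothing of surface protein. Levels per kilobase depended on the length used. With all annotated exons in place of the deposited length, the mean over the lines went from 104 to 29.3 for ITGB1 and from 11.9 to 4.45 for ITGAV. The ratio of ITGB1 to the alpha sum then had the same order of lines, from 0.577 at 200 nM to 1.78 at 15 nM, and with the longest transcript it was 0.961 at 200 nM. By all exons ITGB1 was also under the alpha sum in the drug naive line, at 0.926, and at 50 nM, at 0.888, so that whether it exceeded the sum turned with the length in these 3 lines. By all exons ITGA5, at 39.6, was above ITGB1, at 25.4, at 200 nM.

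**Figure D4:**
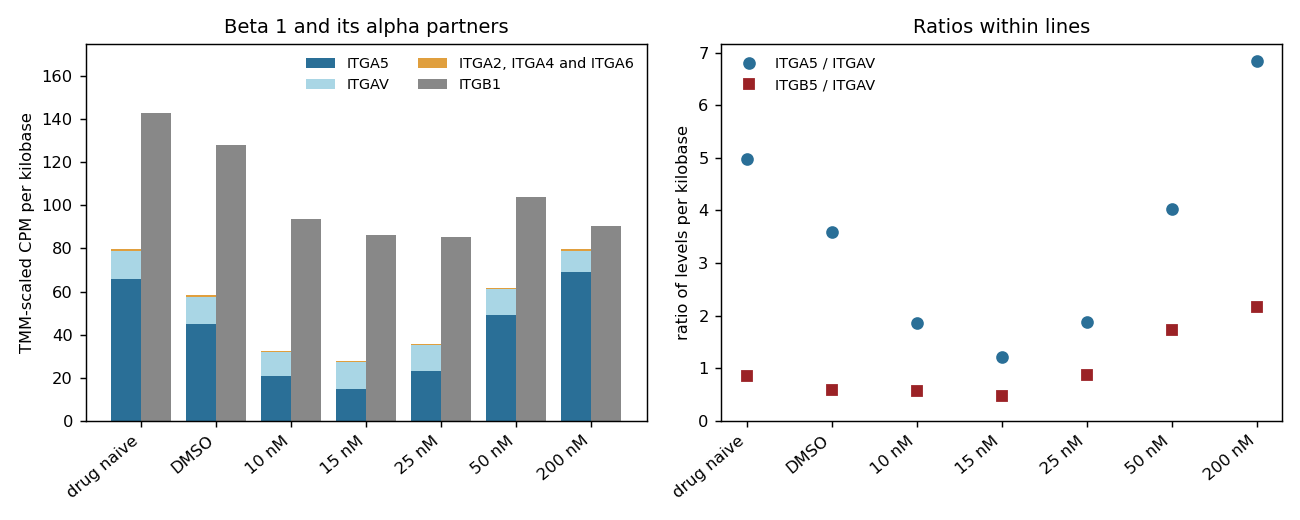
Left, TMM-scaled CPM per kilobase in each line, with the alpha subunits stacked beside ITGB1, and right, the ratios of ITGA5 and of ITGB5 to ITGAV. By the deposited length, ITGB1 is 3.12 times the alpha sum at 15 nM and 1.13 times at 200 nM, although other lengths put it under the sum at 200 nM and, for all exons, also in the drug naive and 50 nM lines, and both ratios to ITGAV are lowest at 15 nM, at 1.22 and 0.468, and highest at 200 nM, at 6.85 and 2.17.

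Outside the list, the platelet subunit ITGA2B, the alpha subunit of the fibrinogen receptor, was the only other integrin gene to enter the test. It had 63.9 CPM in the drug naive line, 52.5 in the DMSO line, then 13.4, 5.96 and 13.2 in the early stage lines and 56.8 and 99.2 at late stage. Like ITGA5, it was lowest in the early stage lines (log2 fold change -2.44, SE 0.37, edgeR FDR 0.00234) and overlapped the controls in the late stage (0.40, SE 0.39, edgeR FDR 0.465). Its early stage FDR was 0.0208 without the drug naive line and 0.0107 without the DMSO line. ITGB3, its beta partner, had 200 and 89 counts in the controls, 176, 222 and 128 in the early stage lines and 169 and 103 at late stage, and the groups overlapped. ITGA7, a laminin receptor subunit, had 58 and 50 counts in the controls and 164, 207 and 138 in the early stage lines. Its early stage log2 fold change at the 1 CPM limit was 1.46 (SE 0.31, edgeR FDR 0.00861), above 0.005. ITGAM, the alpha subunit of the leukocyte complement receptor, had 272 and 167 counts in the controls, 168, 49 and 23 in the early stage lines and 30 and 16 at late stage (late log2 fold change -3.18, edgeR FDR 0.0277).

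The remaining subunits stayed low. ITGAE had between 129 and 207 counts per library and ITGB4 between 24 and 55. ITGAX did not pass 0.005 in late stage (log2 fold change -2.82, edgeR FDR 0.0369), with 93 and 32 counts in the controls and 12 and 5 in the late stage lines. ITGA3, ITGA9, ITGA10, ITGAD and ITGB8 had at most 26 counts in any library, while ITGA1, ITGA8 and ITGA11 had 3 or fewer and ITGB6 had 0.

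Genes that work with integrins were counted by list, against the 18.0% of all genes called in early stage and 7.98% in late stage. Of 14 activators, such as talin, kindlins and the RAP1 machinery, 9 were tested and 1 was called lower in both stages. This was RAPGEF1, the exchange factor for RAP1, with a log2 fold change of -0.62 in early stage (edgeR FDR 0.00175) and -0.83 in late stage (edgeR FDR 0.00157). Among genes whose products restrain integrin tails, FLNA, which encodes a filamin, was called lower in early stage (log2 fold change -1.01, edgeR FDR 0.0049), a call that was lost with a limit of 1 CPM (edgeR FDR 0.00538), with only the 2 groups in the fit (0.00702) and without either late stage line (0.00694 and 0.00683). In late stage DOK2 was called higher (2.85, edgeR FDR 0.000893), an adaptor that competes with talin for the tail. Its CPM was 5.14 and 4.74 in the controls and 13.7, 8.51 and 13.5 in the early stage lines. At late stage DOK2 had 32.9 and 39.6 CPM. Only DasR lines reached 10 CPM, so DOK2 entered the test only through them, and its values are a description.

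Of 30 scaffold and signalling genes of adhesion complexes, 21 were tested, with 1 called higher and 1 lower in early stage and 0 in late stage. TNS3, a tensin that binds beta tails, had 0.666 CPM in both controls, 15.6, 42.3 and 22.3 in the early stage lines, 1.39 at 50 nM and 0 at 200 nM. Its early stage log2 fold change was 5.30 (SE 0.97, edgeR FDR 0.0047), and limma-voom did not call it (FDR 0.0605). Since TNS3 reached 10 CPM in the 3 early stage lines and in no other, it entered the test only through the group where it is high, and its values are a description. GIT1, a scaffold of adhesion turnover, was lower in early stage (-0.77, edgeR FDR 0.00297). Of 15 lateral membrane partners 13 were tested, with CD9, a tetraspanin that associates with integrins, higher (3.50, edgeR FDR 0.00256, although 0.00981 by limma-voom), and CD37 (-1.11, edgeR FDR 0.00189) and SLC3A2 (-0.70, edgeR FDR 0.00268), the CD98 heavy chain, lower in early stage. CD9 had 1.62 and 1.12 CPM in the controls, 15.2, 19 and 12.8 in the early stage lines and 8.59 and 2.73 at late stage, so that it too entered the test only through the early stage lines. None was called in late stage.

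Of 40 ligand and matrix genes 15 were tested, with 3 called higher and 3 lower in early stage. THBS1, thrombospondin, was called higher in both stages, with 0.904 and 1.75 CPM in the controls, 16.6, 45.4 and 36.9 in the early stage lines and 52.8 and 17.8 at late stage (early log2 fold change 4.60, edgeR FDR 0.0026, and late 4.70, edgeR FDR 0.00444). THBS1 reached 10 CPM in DasR lines only and entered the test through them, and limma-voom called it in neither stage (FDR 0.114 and 0.137). LAMB1, a laminin chain, rose in early stage (1.26, edgeR FDR 0.00114). ICAM1, the ligand of ITGAL with ITGB2, fell by 1.16 on the log2 scale (edgeR FDR 0.000459), MFGE8, a ligand of ITGAV integrins, by 2.54 (edgeR FDR 0.000953) and ICAM5 by 0.96 (edgeR FDR 0.00116). The other gene called higher was LTBP1, a latent TGF-beta binding protein (1.22, edgeR FDR 0.00288). LTBP1 is named after its value was seen and is not among the 14 partner genes followed below with lines left out. Of 16 traffic genes, 14 were tested and RAB5A, an early endosome GTPase, was called lower in early stage (-0.50, edgeR FDR 0.00332). Of 7 folding and cleavage genes, 6 were tested and HSP90B1, the endoplasmic reticulum chaperone that integrins need to fold, was called lower (-1.04, edgeR FDR 0.00182). Without the drug naive line, 0 of the 14 named partner genes kept their early stage call, with an edgeR FDR between 0.00648 and 0.0426, and without the 25 nM line 3 did. In late stage, RAPGEF1, DOK2 and THBS1 lost theirs without either control. With only the 2 groups compared in the fit, the edgeR FDR was 0.00511 for RAB5A in early stage, and 0.00823 for RAPGEF1 and 0.00742 for THBS1 in late stage.

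**Figure D5:**
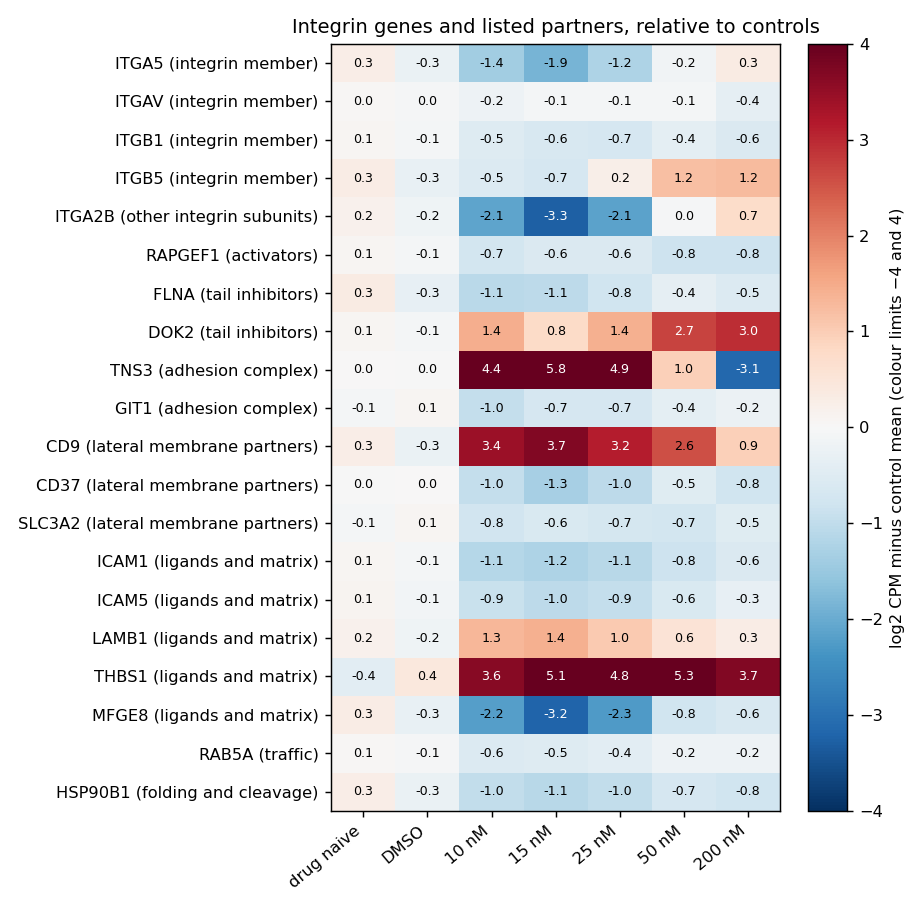
Log2 CPM of integrin genes and the named partner genes in each line, minus the mean of the 2 controls, with the colour scale capped at 4 in either direction. TNS3 and THBS1 are higher in all early stage lines, and ITGA5, MFGE8 and FLNA are lower.

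The patterns most like those of the 2 called genes were found by the root mean square difference of log2 CPM centred over the 7 lines. For ITGA5 these were KIF13B, a kinesin, at 0.10 and RAB8B, a small GTPase, at 0.123. For ITGB1 they were STAT2, a transcription factor of interferon signalling, at 0.036 and GLG1, a Golgi glycoprotein, at 0.042. KIF13B had 63.3 and 54 CPM in the controls, 23.3, 16.2 and 23.8 in the early stage lines and 51.7 and 66.7 at late stage. STAT2 had 133 and 124 CPM in the controls, 85.7, 84.8 and 82.3 in the early stage lines and 95.8 and 90.1 at late stage. Likeness over 7 lines is a description of these lines.

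Markers of other blood lineages were low beside the erythroid genes. Of 10 megakaryocyte and platelet genes 6 exceeded 3 counts, and PF4 and GP9 had at most 1 count. Their summed level was 80.5 and 64.3 CPM in the controls, 60.2, 20.7 and 30.8 in the early stage lines and 82.9 and 114 at late stage, with ITGA2B itself the most abundant over the lines. VWF, von Willebrand factor, was named after its values were seen, with 0.666 and 0.291 CPM in the controls, 37, 3.88 and 7.93 in the early stage lines and 13.8 and 6.67 at late stage. It was above ITGA2B at 10 nM and, unlike ITGA2B, above both controls in each early stage line. The summed monocyte and granulocyte level was 113 and 93 CPM in the controls and 134, 41.2 and 65.1 in the early stage lines. At late stage this sum was 136 and 139 CPM, and LYZ was the most abundant gene of the list. Within the early stage the sum was highest at 10 nM, as ITGB2 was. The late stage sums were higher still, while ITGB2 had 2.74 and 0.973 CPM in those lines. The summed T and NK cell level was 26 and 15.5 CPM in the controls, 8.16, 8.15 and 16.1 in the early stage lines and 40 and 65.5 at late stage, while LCK had at most 1 count. CD3D had the highest level of this list in the other lines, and at 200 nM PRF1, perforin, had 30.2 CPM and CD3D 29.6. B cell markers summed to between 3.07 and 10.4 CPM and fibroblast and endothelial markers to between 8.63 and 24.3 CPM. The part of these lists in the integrin differences was not tested.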

How the data were processed

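RNA of 7 K562 lines was sequenced, 1 library per line, and the authors deposited raw counts for 25702 gene IDs. The paper's methods name the hg19 build and the STAR aligner, and the submitters' processing notes name featureCounts and edgeR. The authors also deposited log2 fold changes, log2 CPM values, p-values and FDR values from their own comparisons, which were not used. RefSeq gave symbols for 23696 IDs, and positions came from GENCODE on GRCh37, the same build.

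The 10452 genes that reached 10 CPM in 2 or more libraries were fitted after TMM scaling by the quasi-likelihood functions glmQLFit and glmQLFTest of edgeR 4.0.16 in R 4.3.3, in 1 fit of all 7 libraries with a coefficient per group, or with 1 coefficient for all DasR lines. P-values were adjusted by Benjamini-Hochberg over all genes tested and called at an FDR of 0.005, as in the study. SE is the size of the log2 fold change divided by the square root of the quasi-likelihood F. The common dispersion was 0.026. Levels per kilobase used the deposited gene length, or the longest GENCODE transcript for genes without one. DESeq2 1.42.0 and limma 3.58.1 were alternatives, with other scalings, filters, thresholds and each library left out in turn. Counts were also simulated for 10452 genes, 200 of them changed, in early stage against control. All genes were given the dispersion of 0.026, and lines of a group differed by no dose effect. Of the changed genes, 100 of 100 changed by 2 on the log2 scale and 56 of 100 changed by 1 were recovered, with 0 unchanged genes called. Since the real lines differ in dose and the real genes in spread, this gives no error rate for these data. Lines within a group were not repeats of 1 library: chi-square values divided by their degrees of freedom ran from 14.5 to 45. The stages were set by the study from the clustering of these libraries and are not independent of expression.

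The integrin genes, the gene lists and the genes named were chosen with earlier results of these data known. Named from each list were the genes called in early or late stage, at most 5 by smallest p in early stage, and all other integrin subunits with over 3 counts. For each called integrin gene, the 2 genes outside the family nearest in pattern were named. Counts of 3 were taken as the floor. Values of some listed genes were left out.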

Additional observations from a re-analysis of the deposited data

Results flagged for a closer look

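Early stage and late stage effects, measured against the same controls, differed for ITGA5 and ITGB5 by the contrast of late with early stage in the edgeR fit. The log2 fold change of late over early stage was 1.59 for ITGA5 (SE 0.24, edgeR FDR 0.0167) and 1.5 for ITGB5 (SE 0.29, edgeR FDR 0.023). Both passed 0.05 and missed 0.005, and all late stage lines were above all early stage lines for both genes. Leaving out each library gave 1.33 to 1.82 for ITGA5 (FDR 0.00897 to 0.0873) and 1.33 to 1.83 for ITGB5 (FDR 0.0278 to 0.114). No group had 4 or more samples, so no sample was tested as an outlier.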

How the results depend on the processing

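DESeq2 called 3548 genes in early stage, 2503 in late stage, 1135 in late against early stage and 2655 for all DasR lines, with 2, 2 and 1 integrin genes in the last 3. An FDR of 0.05 called 4865, 3542, 1328 and 3386 genes, with 2, 2 and 1 integrin genes in the last 3. A filter of 1 count called 1287 genes in late stage, and 295 genes and 1 integrin gene in late against early stage. With only the 2 groups compared in the fit, late stage had 257 genes. Leaving out 1 library at a time gave 208 to 2066 genes in early stage, 33 to 596 in late stage, 0 to 198 in late against early stage and 28 to 1376 for all DasR lines. Integrin genes called were then 0 to 2 in early stage and 0 to 0 in the other 3 comparisons. Log2 fold changes that turned sign without 1 library were those of ITGB5 in early stage (-0.64 to 0.04), ITGA5 in late stage (-0.18 to 0.39), ITGA2B in late stage (-0.05 to 0.73) and ITGAV in late against early stage (-0.24 to 0.03). None of these had been called. The lowest counts came without the drug naive line, and the 198 without the 50 nM line. The cause of these shifts was not tested. No paired analysis was possible because the labels give the lines no shared replicate numbers.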
